A study of Mus musculus with 6 samples.

Results

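The lower part of glycolysis and the export of its end product were followed through 10 genes in mouse CD4+ T cells that did or did not carry an activated Sf3b1 mutant allele. The genes were taken by symbol for their place in the pathway: Tpi1, Gapdh, Pgk1, Pgam1, Eno1 and Pkm for the enzymes from triose phosphate to pyruvate, Ldha and Ldhb for lactate dehydrogenase, and Slc16a1 and Slc16a3 for the lactate carriers. All 10 were among the 26469 gene rows of the deposited table and among the 18323 genes that passed the filter on low counts. RNA was sequenced from 6 cultures of splenic naive CD4+ T cells, 3 per group. Control cells, annotated as wild type, came from Sf3b1K700E/fl mice without Cre, so they carry the conditional allele too. Mutant cells came from Sf3b1K700E/fl mice with Cd4Cre, a recombinase driven by the Cd4 promoter that acts from thymic development onward in T cells, and are annotated as Sf3b1 mutation. The culture of both groups lasted 36 h and contained TGF-β (5 ng/ml) and antibodies against CD3, CD28, IL-4 and IFNγ, a mixture that turns naive cells towards regulatory T cells. No label gives age or sex, and the series asks how the K700E change alters this differentiation.

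Glycolysis splits a hexose into triose phosphates, and the enzymes followed here carry these to pyruvate while making ATP and NADH. Lactate dehydrogenase turns pyruvate into lactate and returns NAD+ to the pathway, and monocarboxylate carriers let lactate leave the cell. T cells raise these genes strongly after activation, under MYC and the hypoxia-inducible factor HIF-1, and regulatory T cells are known to lean less on glycolysis than effector T cells.

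The deposited counts added up to between 33633196 and 43928723 per library, of which the 10 genes took 0.545 to 0.619% in control and 0.270 to 0.498% in mutant libraries. Levels are given as CPM, counts scaled to a common library total. Sf3b1, the targeted gene, was at 632, 712 and 638 CPM in control 1, 2 and 3, against 649, 593 and 639 CPM in mutant 1, 2 and 3, and counts per gene do not show the mutant allele. The labels do not say whether the samples are separate animals, so p-values speak for the spread among these 6 samples alone, which may be technical. Xist, the RNA of the inactive X, was at 3475 CPM in control 1 and at most 0.661 CPM in the other 5 libraries. By this RNA control 1 came from female cells, unlike the rest, so it was not a technical repeat of another control. Whether the other libraries within a group are separate animals is not shown. The 7 T cell markers, Cd3d, Cd3e, Cd3g, Cd4, Trac, Lck and Cd5, summed to 1562 to 2160 CPM in control and 1769 to 2470 CPM in mutant libraries, highest in mutant 1, the library in which most members were lowest. There Cd3d was at 196 CPM, beside 93.5 to 118 CPM in the other 5 libraries, and Cd3e at 363 CPM, beside 180.4 to 264 CPM. Cd3g, Trac and Lck were also highest in mutant 1, but Cd4 and Cd5 were not. Cd4 was at 480 CPM in mutant 1 and 604 CPM in control 2, and Cd5 at 357 CPM in mutant 1 and 408 CPM in mutant 3. The 6 B cell markers summed to 134 to 157 CPM in control and 123 to 222 CPM in mutant libraries, and all 6 had higher means in mutant cells. Pax5, a transcription factor of B cells, was at 0.784, 0.0246 and 0.138 CPM in control 1, 2 and 3, against 0.0848, 11.5 and 1.68 CPM in mutant 1, 2 and 3. The CD8 markers summed to 5.81 to 40.4 and 6.56 to 17.3 CPM, and the marker sums of NK, myeloid, neutrophil, erythroid and platelet cells stayed at or below 6.06 CPM in every library. Dendritic cell markers summed to 9.80 to 12.8 and 6.44 to 22.4 CPM. Their part in the results below was not tested, and in bulk RNA fewer cells of a type and less RNA per cell cannot be told apart.

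All 10 members had lower means in mutant than in control cells (47.1% of all genes had a log2 fold change below 0), Ldhb by very little, and no member passed the test. By edgeR's quasi-likelihood test 0 of the 10 genes reached an adjusted p of 0.05 over all genes tested (smallest adjusted p = 0.644), beside 0% of all 18323 genes. At an unadjusted p under 0.05 edgeR had 3 members, Slc16a3, Pgk1 and Tpi1, all lower. Over all genes it had 7.62% in either direction and 3.48% lower. At the same threshold limma-voom had 4 members and 1299 of 18323 genes, and DESeq2 had 3 members and 1618 of 26381 genes. In 6 members, Tpi1, Gapdh, Pgk1, Eno1, Pkm and Ldha, the highest mutant value was under the lowest control value, which held in this direction for 7.48% of all genes, in the other for 6.6% and in either for 14.1%. No member lay higher in all mutant libraries. The median log2 fold change, mutant minus control, was -0.49 over the members and 0.024 over all genes. Among the 7799 genes as abundant as the least abundant member or more, 56.1% had a log2 fold change below 0, 10.9% lay lower in every mutant library and the median was -0.036. Mutant 1 was the lowest library for 8 of the 10 genes, and without it the members' median was -0.24 and 0 members passed edgeR's test. Without mutant 1, edgeR had 2 members with an unadjusted p under 0.05, beside 1562 of all 18765 genes. It had 0 without control 1 (beside 866 of 18792), 1 without control 3 (618 of 18921) and 5 without mutant 3 (2426 of 18840). Without control 2 it had 3 (1244 of 18999), and without mutant 2 also 3 (1384 of 18765). The count over all genes thus moved between these fits too.

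**Figure D1:**
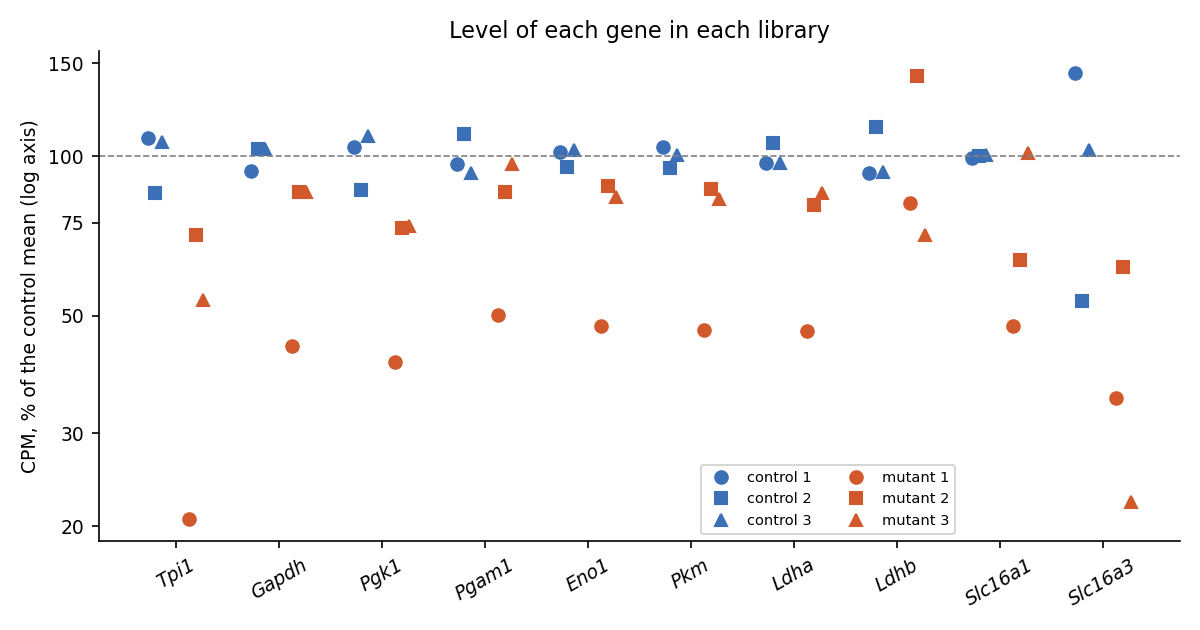
The level of each gene in each library is drawn as a percent of its control mean on a log axis, with control libraries in blue and mutant libraries in orange and a symbol for each replicate number. Mutant 1 lies between 20.7 and 50.1% for every gene but Ldhb, while mutant 2 and mutant 3 lie between 81.0 and 96.9% for Gapdh, Pgam1, Eno1, Pkm and Ldha.

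Of the enzymes that act on 3-carbon sugar phosphates, Tpi1 and Pgk1 differed most between the groups. Tpi1 (ENSMUSG00000023456) encodes triose phosphate isomerase, which converts dihydroxyacetone phosphate to glyceraldehyde 3-phosphate. It was at 618, 487 and 608 CPM in control 1, 2 and 3, against 118, 406 and 305 CPM in mutant 1, 2 and 3. All mutant libraries were below all control libraries, and mutant 1, at 20.7% of the control mean, stood far below the other 2. The Tpi1 log2 fold change was -1.05 ± 0.39 (SE; 95% confidence limits -1.95 and -0.14; edgeR adjusted p = 0.645), and -0.67 without mutant 1. Gapdh (ENSMUSG00000057666), glyceraldehyde 3-phosphate dehydrogenase, makes the NADH of the pathway. It was at 426, 469 and 469 CPM in the controls, against 199, 390 and 390 CPM in the mutants. Mutant 2 and mutant 3 were close to each other and below the lowest control, and mutant 1 was at 43.8% of the control mean. The Gapdh log2 fold change was -0.48 ± 0.25 (SE; 95% confidence limits -1.06 and 0.11), and -0.21 without mutant 1.

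Pgk1 (ENSMUSG00000062070), the X-linked gene of phosphoglycerate kinase, makes the first ATP of the lower pathway. It was at 422, 350 and 443 CPM in the controls, against 166, 297 and 299 CPM in the mutants. The groups did not overlap, and mutant 2 and mutant 3 were alike. Control 1, the library with Xist RNA, was not apart from the other controls for this gene. The fitted difference on the log2 scale was -0.67 ± 0.24 (SE; 95% confidence limits -1.23 and -0.12; edgeR adjusted p = 0.644), and -0.43 without mutant 1. Pgam1 (ENSMUSG00000011752), phosphoglycerate mutase, moves the phosphate to the neighbouring carbon. It was at 439, 500 and 422 CPM in the controls, against 227, 389 and 440 CPM in the mutants. Mutant 3 lay within the control range, so the groups overlapped. The fitted difference on the log2 scale was -0.37 ± 0.24 (SE; 95% confidence limits -0.92 and 0.19), the smallest of the 6 genes from Tpi1 to Pkm, and -0.12 without mutant 1.

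The last enzymes before lactate, Eno1 and Pkm, followed nearly the same course over the libraries. Eno1 (ENSMUSG00000063524), enolase 1, makes phosphoenolpyruvate. It was at 710, 664 and 715 CPM in the controls, against 333, 613 and 583 CPM in the mutants. Pkm (ENSMUSG00000032294) encodes the muscle-type pyruvate kinase, which makes pyruvate and ATP. It was at 1471, 1341 and 1419 CPM in the controls, against 663, 1222 and 1173 CPM in the mutants. For both genes the groups did not overlap, and mutant 2 and mutant 3 were at 83.2 to 88.0% of the control mean. Log2 fold changes were -0.45 ± 0.23 for Eno1 (SE; 95% confidence limits -0.98 and 0.082) and -0.47 ± 0.23 for Pkm (from -1.01 to 0.071). Without mutant 1 they were -0.21 and -0.22. Pkm makes the M1 and M2 isoforms by a choice between 2 exons, which counts per gene do not show. Of 6 genes for proteins that act on that choice, 0 passed the test and 5 had lower means, beside 47.1% of all genes. Hnrnpa1 was at 621 ± 65.3 CPM in control cells against 490 ± 109 CPM in mutant cells (SD, n = 3), Srsf3 at 516 ± 34.7 and 465 ± 66.6 CPM and Rbm4 at 61.3 ± 5.18 and 68.7 ± 7.27 CPM, and all 3 overlapped between the groups.

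The subunit genes of lactate dehydrogenase differed in their course. Ldha (ENSMUSG00000063229) encodes the M subunit, induced in activated T cells. It was at 1656, 1804 and 1654 CPM in the controls, against 798, 1381 and 1452 CPM in the mutants. Every mutant library was lower, and mutant 1 was at 46.8% of the control mean. The fitted difference on the log2 scale was -0.49 ± 0.23 (SE; 95% confidence limits -1.03 and 0.037), and -0.25 without mutant 1. Ldhb (ENSMUSG00000030246) encodes the H subunit, typical of tissues that use lactate. It was at 17.2, 21.0 and 17.2 CPM in the controls, against 15.1, 26.2 and 13.1 CPM in the mutants. Mutant 2 was the highest and mutant 3 the lowest of all libraries, so the groups overlapped. The Ldhb log2 fold change was -0.026 ± 0.27 (SE), and its 95% interval from -0.65 to 0.60 covers the values of most other members. The log2 ratio of Ldhb to Ldha was -6.59, -6.42 and -6.58 in control 1, 2 and 3 and -5.72, -5.72 and -6.79 in mutant 1, 2 and 3. Mutant 1 and mutant 2 were above and mutant 3 below all controls. The mean difference of 0.46 had an exact two-sided permutation p = 0.4 (adjusted over the 2 ratios tested, 0.4; smallest possible 0.1 with 3 against 3), and it was 0.81 without mutant 3.

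Both lactate carriers were low in mutant 1, and beside it Slc16a1 was low in mutant 2 and Slc16a3 lowest in mutant 3. Slc16a1 (ENSMUSG00000032902) encodes MCT1, a carrier that works in both directions. It was at 212, 214 and 215 CPM in the controls, against 102, 136 and 217 CPM in the mutants. The controls were nearly equal, while mutant 1 and mutant 2 were far below them and mutant 3 just above. The fitted difference on the log2 scale was -0.49 ± 0.26 (SE; 95% confidence limits -1.09 and 0.10), with -0.26 without mutant 1 and -0.85 without mutant 3. Slc16a3 (ENSMUSG00000025161) encodes MCT4, the carrier of strongly glycolytic cells and a HIF-1 target. It was at 69.0, 25.6 and 49.5 CPM in the controls, against 16.8, 29.7 and 10.7 CPM in the mutants. Control 2 was below mutant 2, so the groups overlapped, and mutant 3 was at 22.3% of the control mean. Its log2 fold change of -1.33 ± 0.44 (SE; 95% confidence limits -2.36 and -0.30; edgeR adjusted p = 0.644) was the largest of the 10 in size. Without mutant 2 it was -1.78, and without control 1 it was -0.98. The log2 ratio of Slc16a3 to Slc16a1 was -1.62, -3.06 and -2.12 in control 1, 2 and 3, against -2.60, -2.20 and -4.33 in mutant 1, 2 and 3, with overlap. The mean difference of -0.78 had an exact two-sided permutation p = 0.4 (adjusted 0.4), and it was -0.13 without mutant 3. Bsg, the chaperone that brings both carriers to the membrane, was at 183, 193 and 181 CPM in the controls, against 120, 142 and 154 CPM in the mutants without overlap. The fitted difference on the log2 scale was -0.42 ± 0.14 (SE; edgeR adjusted p = 0.644).

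**Figure D2:**
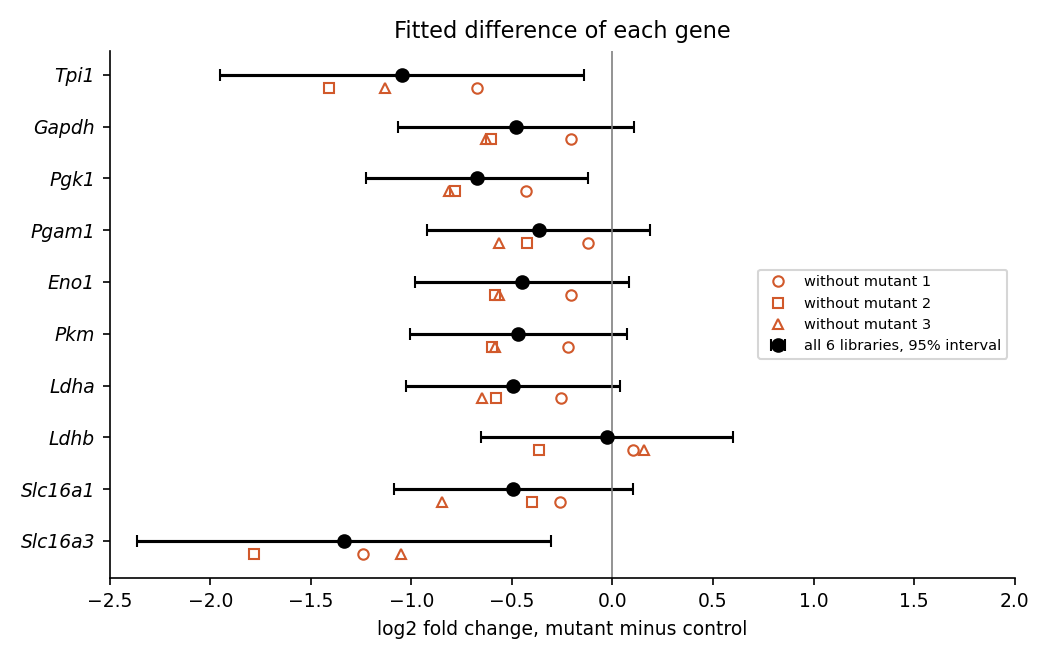
Fitted log2 fold changes, mutant minus control, are drawn as black points with 95% intervals for all 6 libraries, and as open orange symbols for fits that leave out a single mutant library. The intervals of Tpi1, Pgk1 and Slc16a3 lie below 0, and leaving out mutant 1 raises all 10 values, that of Ldhb past 0.

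Among themselves the members differed in how closely they followed the others. Over the 6 libraries the log2 CPM of each of Tpi1, Gapdh, Pgk1, Eno1, Pkm and Ldha had a Pearson correlation of 0.942 to 0.999 with the mean of the other 9 members, against 0.862 for Pgam1. Slc16a1 had 0.771, with 0.906 to Pgam1 and 0.906 to Ldha, while Slc16a3 had 0.572 and Ldhb 0.320. The closest pair was Eno1 and Pkm (0.999, and 0.998 after the group means were taken out), and the most distant Ldhb and Slc16a1 (-0.138). These correlations describe 6 libraries that share 1 culture protocol. Mutant 1, by far the lowest library in the mean of the members, weighs heavily in them, also after the group means were taken out. Correlations without mutant 1 were not computed. The mean log2 level of the members relative to the control mean was 0.063, -0.089 and 0.026 in control 1, 2 and 3 and -1.17, -0.28 and -0.48 in mutant 1, 2 and 3.

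Per kilobase of merged exon the order of levels in control cells was Ldha, Pkm, Pgam1, Tpi1, Pgk1, Eno1, Gapdh, Slc16a1, Ldhb and Slc16a3. Levels ran from 515 CPM per kilobase for Ldha and 282 for Pkm to 11.8 for Ldhb and 9.03 for Slc16a3. The ranges over the 3 controls overlapped between Pgam1 (213 to 252 CPM per kilobase) and Tpi1 (177 to 224), between Tpi1 and Pgk1 (156 to 197), and between Ldhb (10.9 to 13.4) and Slc16a3 (4.82 to 13.0). The other neighbours in this order did not overlap. Exon lengths came from an annotation of another build and include rarely used exons. Copies of Gapdh, Pgk1, Eno1 and Pgam1 have counts of their own, so the order is that of the single rows without them. With the copies' counts added, control means rose from 405 to 1313 CPM for Pgk1, from 696 to 2100 CPM for Eno1 and from 455 to 1296 CPM for Gapdh. The order would then differ.

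Glycolytic genes have many processed copies in the mouse genome, and in this table the copies of 3 members held more counts than the genes themselves. Of the 50-base stretches of the protein-coding transcripts, 68.0% for Pgk1, 58.4% for Gapdh, 49.5% for Eno1 and 41.5% for Pgam1 also occur in transcripts of other genes. The share was 23.7% for Pkm, 21.0% for Ldhb, 10.4% for Ldha and 6.83% for Tpi1, and 0% for both carriers. Gm7336, a copy of Gapdh, was listed with 27198 counts in control 1 beside 14675 for Gapdh. Pgk1 had 14519 counts in control 1, and its copies Gm5537 and Pgk1-rs7 had 17190 and 16094. Eno1 had 24454 counts there, and its copies Eno1b and Gm4735 had 26141 and 24620. Genes whose own sequence was at least 50% shared with a member took 62.2 to 66.0% of the joint counts of Gapdh over the 6 libraries. They took 68.6 to 70.3% for Pgk1, 65.9 to 67.5% for Eno1 and 19.5 to 22.4% for Pgam1. The table does not tell reads of a gene from reads of such a copy, so levels of these 4 rows are uncertain, while the split hardly moved between libraries. With the copies' counts added, the log2 fold changes were -0.55 for Gapdh, -0.65 for Pgk1, -0.48 for Eno1 and -0.34 for Pgam1. The joint level of Eno1 was then 2100 ± 105 CPM in control cells against 1510 ± 463 CPM in mutant cells (SD, n = 3), and no member passed edgeR's test (smallest adjusted p = 0.645).

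**Figure D3:**
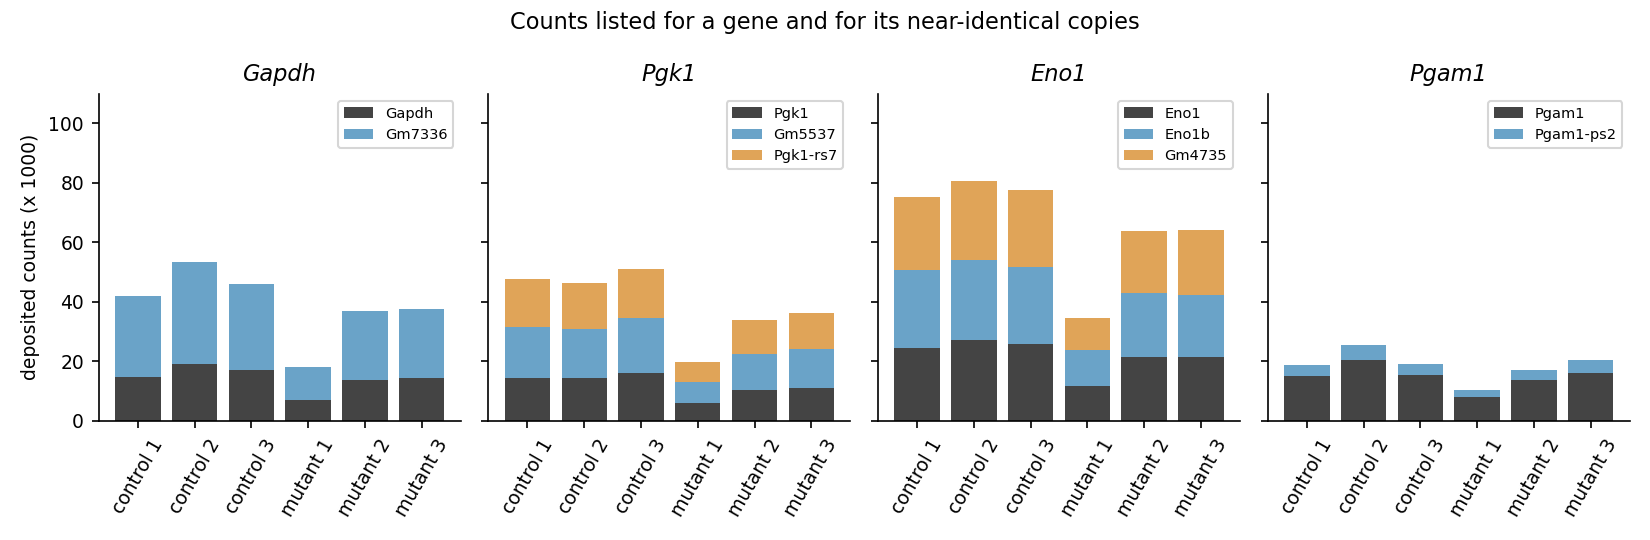
Deposited counts are stacked for Gapdh, Pgk1, Eno1 and Pgam1 and for their near-identical copies with the most counts, with a bar per library. Mutant 1 has the shortest bar in each panel, and the copies take a nearly constant part of each bar.

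Promoter sequence is shown for 4 members, since HIF-1, through the core letters ACGTG or GCGTG, and MYC, through the E-box CACGTG, are known to act on glycolytic genes. RefSeq windows from 250 bases before to 50 bases after the gene start (GRCm38.p6) were found for all 10 members, 14 windows in all, and searched on both strands. An E-box also counts as a pair of ACGTG matches. Either HIF core was present in 12 of the 14 windows and in a window of 9 of the 10 genes, beside 43.8% of all 32851 windows of the same length. The E-box was in 2 of the 14 windows, those of Ldha and Slc16a1, beside 7.15% of all windows. These shares are per window, and a gene with several windows has more chances of a match. Windows 2 and 3 of Eno1 overlap and hold the same matches, so the 14 windows are not independent. The windows are printed 5′ to 3′ with matches in capitals: Ldha, the gene with the most matches, by the first of its 2 windows at chr7:46845554-46845853 (plus strand) with 7 HIF core matches and 2 E-boxes, and Pgk1 at chrX:106186850-106187149 (plus strand) with 2 HIF core matches. Tpi1 at chr6:124814109-124814408 (minus strand), the enzyme with the largest difference, has 0 matches, and Ldhb at chr6:142507908-142508207 (minus strand), the member with the smallest difference, has 1. These matches are a description of letters, not of binding.
Ldha: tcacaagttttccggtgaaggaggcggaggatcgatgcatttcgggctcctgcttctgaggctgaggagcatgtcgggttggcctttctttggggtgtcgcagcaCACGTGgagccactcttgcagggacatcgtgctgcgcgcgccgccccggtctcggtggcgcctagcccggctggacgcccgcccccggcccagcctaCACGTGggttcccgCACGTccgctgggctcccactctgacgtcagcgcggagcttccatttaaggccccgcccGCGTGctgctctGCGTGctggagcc
Pgk1: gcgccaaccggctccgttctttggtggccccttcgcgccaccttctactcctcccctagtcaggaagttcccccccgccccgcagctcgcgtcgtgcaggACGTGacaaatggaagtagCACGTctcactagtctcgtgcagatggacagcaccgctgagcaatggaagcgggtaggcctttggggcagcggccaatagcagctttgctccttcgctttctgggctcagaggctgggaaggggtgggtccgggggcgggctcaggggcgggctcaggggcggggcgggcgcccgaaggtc
Tpi1: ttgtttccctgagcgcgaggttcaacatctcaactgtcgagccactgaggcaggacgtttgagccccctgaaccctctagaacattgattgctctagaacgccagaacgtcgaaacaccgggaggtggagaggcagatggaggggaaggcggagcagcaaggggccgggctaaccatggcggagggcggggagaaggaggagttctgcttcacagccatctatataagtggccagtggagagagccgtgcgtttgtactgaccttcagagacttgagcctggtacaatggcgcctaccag
Ldhb: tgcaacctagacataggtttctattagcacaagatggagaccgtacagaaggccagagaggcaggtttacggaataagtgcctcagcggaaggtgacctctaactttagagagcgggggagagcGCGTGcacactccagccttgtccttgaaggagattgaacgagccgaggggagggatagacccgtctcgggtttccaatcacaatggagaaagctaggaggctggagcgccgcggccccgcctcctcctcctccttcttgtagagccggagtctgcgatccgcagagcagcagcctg

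The genes before and beside the lower pathway were also mostly measured lower, and 0 of them passed edgeR's test over all genes. Of 13 genes of glucose uptake and upper glycolysis, 12 had lower means, 5 without overlap, with a median log2 fold change of -0.50. The shares over all genes were 47.1% below 0 and 7.48% lower without overlap. Values of the 13 genes ran from -1.02 to 0.16, and some of the lower ones were close to 0. Slc2a1, the glucose carrier GLUT1, was at 101, 66.1 and 72.4 CPM in the controls, against 32.6, 60.9 and 54.9 CPM in the mutants. Pfkp, a phosphofructokinase, was at 312 ± 99.3 CPM in control cells against 162 ± 37.4 CPM in mutant cells (SD, n = 3), Aldoa, the aldolase that feeds Tpi1, at 753 ± 135 and 478 ± 99.7 CPM, and Gpi1, glucose phosphate isomerase, at 318 ± 39.9 and 239 ± 18.2 CPM. Aldoa and Gpi1 did not overlap between the groups, and Pfkp did. The mean log2 level of this list relative to the control mean was -0.74, -0.23 and -0.51 in mutant 1, 2 and 3, and -0.26 in control 2. So control 2 was below mutant 2 for upper glycolysis, which was not the case for the lower pathway, where they were at -0.089 and -0.28.

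Branches that leave the pathway had a median log2 fold change of -0.17 over 16 genes, 12 of them lower, beside 47.1% of all genes. The lowest p-values belonged to genes that draw on 3-phosphoglycerate for serine, and to the pentose phosphate gene Rpia. Psat1 was at 398, 360 and 409 CPM in the controls, against 109, 249 and 225 CPM in the mutants, and Phgdh, the first enzyme of that branch, at 227 ± 9.94 and 163 ± 19.4 CPM. Rpia was at 51.1 ± 4.67 and 36.6 ± 3.53 CPM (SD, n = 3), and none of these 3 overlapped between the groups. A list of 20 genes covered pyruvate entry into mitochondria, pyruvate dehydrogenase and its control, and NADH shuttles. In it 19 were lower, beside 47.1% of all genes, with a median of -0.22 and values from -0.67 to 1.32. The list holds both activators and inhibitors of pyruvate dehydrogenase, so the count has no single meaning for pyruvate use. Got1, of the malate-aspartate shuttle, was at 96.3 ± 3.17 and 72.3 ± 6.10 CPM, and Pdp2, which activates pyruvate dehydrogenase, at 73.0 ± 5.29 and 48.8 ± 15.1 CPM, both without overlap. Pdk1, the HIF-induced kinase that inhibits pyruvate dehydrogenase, was at 124 ± 18.4 and 77.9 ± 24.8 CPM with overlap.

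All 14 other HIF targets had lower means, 2 of them without overlap, with a median log2 fold change of -0.55. Of all genes, 47.1% had a log2 fold change below 0 and 7.48% lay lower without overlap. Values of the 14 targets ran from -2.20 to -0.0034, so some hardly differed between the groups. P4ha1, a collagen prolyl hydroxylase, was at 90.9 ± 12.6 CPM in control cells against 55.7 ± 7.34 CPM in mutant cells (SD, n = 3). Bnip3 was at 48.4, 12.6 and 41.5 CPM in the controls, against 6.73, 14.0 and 6.52 CPM in the mutants, and Vegfa, the vascular growth factor, at 53.3, 10.3 and 45.1 and at 5.31, 13.7 and 4.59 CPM. As for Slc16a3, control 2 was low and lay below mutant 2 in both genes. Among 12 regulators 6 were higher and 6 lower, with a median of -0.0090. Hif1a was at 297, 177 and 269 CPM in the controls, against 169, 275 and 203 CPM in the mutants with overlap. Myc was at 307, 285 and 309 CPM and at 252, 226 and 281 CPM, without overlap. Egln3, an oxygen sensor that is itself a HIF target, was at 75.3 ± 27.4 and 35.3 ± 12.1 CPM, its relative Egln1 at 77.8 ± 7.02 and 57.6 ± 0.982 CPM, and Vhl, which marks HIF for destruction, at 22.0 ± 2.11 and 28.3 ± 3.50 CPM, all without overlap.

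**Figure D4:**
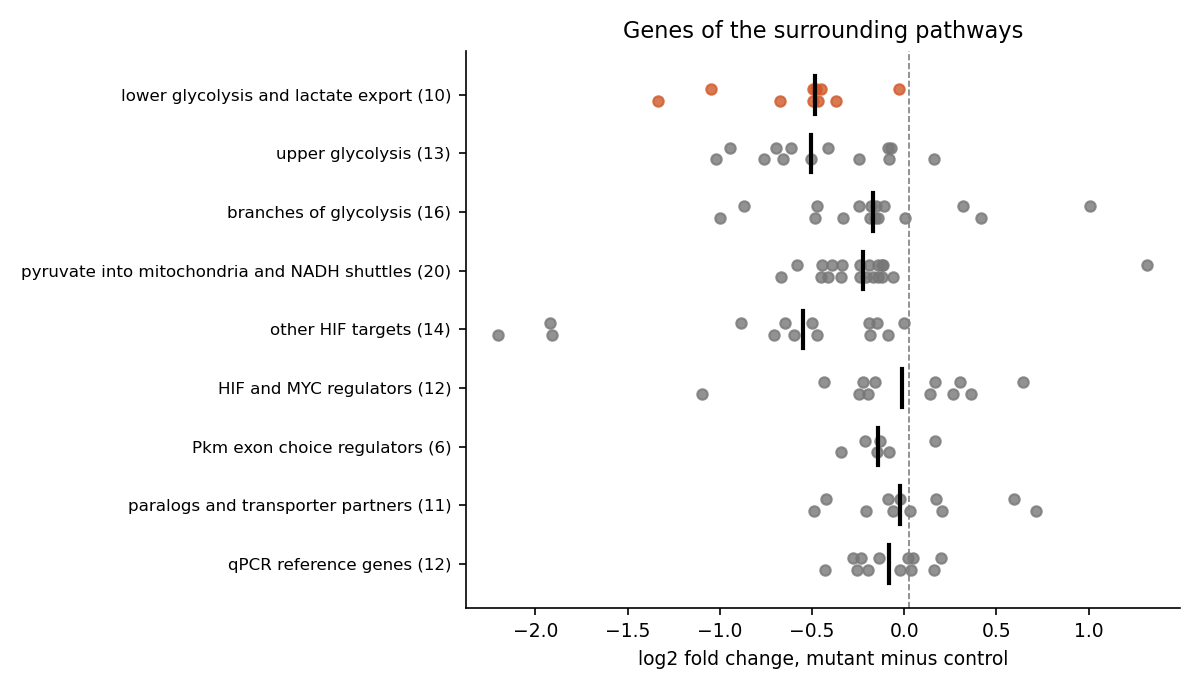
Log2 fold changes, mutant minus control, are drawn as a point per gene for the 10 members (orange) and for 8 other lists (grey), with the number of tested genes in brackets. Black bars are list medians, and the dashed line is the median of all genes at 0.024. The members (-0.49), upper glycolysis (-0.50) and the other HIF targets (-0.55) have the lowest medians.

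Relatives of the members in the same gene families had no common direction. Of 16 relatives and partners, 11 were tested, 6 lower and 5 higher, with a median log2 fold change of -0.024. Listed below the filter were Gapdhs, Eno4, Pklr and Ldhc, with at most 12.6 counts in any library. Pgam2, the muscle mutase, was at 0.510 ± 0.038 and 0.773 ± 0.213 CPM. Genes used as references in quantitative PCR, as Gapdh often is, had a median of -0.082 over 12 tested genes, 7 lower and 5 higher. The largest difference among them was that of Hprt, at 200 ± 15.3 CPM in control cells against 149 ± 34.3 CPM in mutant cells (SD, n = 3; log2 fold change -0.43 ± 0.19 SE). Tubb5 was at 1713 ± 281 and 1412 ± 116 CPM and Ppia at 932 ± 134 and 779 ± 148 CPM. Hprt, Tubb5 and Ppia were named for the smallest p in this list, and their direction is not that of all its genes.

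Apart from the members, the genes most like the members over the 6 libraries were taken from 5988 other genes whose mean log2 CPM was at least 5, by the correlation with the members' mean. The first 8 were Ankrd26, Klc1, Wdr90, Faf1, Psat1, Eno1b (the copy of Eno1), Slc25a1 and Magt1, with correlations from 0.990 to 0.998. Their size of difference varied: the log2 fold change was -0.14 for the kinesin light chain gene Klc1 and -0.32 for Ankrd26; Psat1 was among the serine genes given above. Slc25a1, the citrate carrier of mitochondria, was at 59.0, 56.0 and 57.9 CPM in the controls, against 23.3, 45.8 and 44.0 CPM in the mutants. All 8 were lower in every mutant library, in the same libraries on which likeness was measured.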

How the data were processed

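RNA was taken after 36 h of culture and 1.0 µg per library was depleted of ribosomal RNA and sequenced, per the labels' protocols. Per the submitters' processing notes, processing involved STAR 2.7.8a and Partek, with mm39 (GRCm39) as the build. No source used here gives their roles, the annotation or the strand setting. The authors deposited estimated counts for each gene, whose differing library totals show no scaling, and 57.8% of the values, zeros included, equal their rounded value exactly, with no tolerance. They had been expected to be whole counts and were rounded.

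Analyses used R 4.3.3. The filter was filterByExpr at a minimum count of 10, which kept 99.92% of counts, with TMM scaling in edgeR 4.0.16, and groups were compared by its quasi-likelihood test with robust dispersion estimates, without covariates. P-values are two-sided, with Benjamini-Hochberg adjustment across the 18323 tested genes and a threshold of 0.05. Standard errors are the absolute log2 fold change over the square root of F, with 95% intervals from the test's degrees of freedom. Log2 CPM used a prior count of 2. Within each group the 3 pairs of libraries differed beyond sampling noise, with chi-square values of 17.0 to 157 per degree of freedom. Each was counted as 1 replicate. Copies were found by shared 50-base words in GENCODE M21 transcripts (GRCm38), which also gave exon lengths. No coordinates of the table's build are given. The edgeR step was tested on simulated data.

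Alternatives were DESeq2 1.42.0, limma-voom (limma 3.58.1), other scalings, filters and thresholds, the replicate number as a block, omission of mitochondrial genes and of small structural RNAs, single libraries left out, and copies' counts added. The members and lists were chosen with earlier results of these data known. Named genes are the members, Sf3b1, Hif1a, Myc, Slc2a1, Bsg, up to 3 genes with the smallest p from each of 8 lists, and the 8 genes most like the members. Xist, the copies, Pax5, the single T cell markers given with values and the genes named in the closing section were named after their values were seen.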

Additional observations from a re-analysis of the deposited data

How the results depend on the processing

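No member passed the adjusted p of 0.05 in any alternative. Over all genes 0 were called in every edgeR and limma-voom fit, and 100 by DESeq2, none of them a member. Of the 10 genes, 9 were lower in mutant cells in all 16 alternatives. The direction of Ldhb was not stable: its log2 fold change was 0.012 with upper quartile scaling and 0.0077 with the filter of 1 CPM in 3 samples, and it ran from -0.37 without mutant 2 to 0.16 without mutant 3 when single libraries were left out. The count of members without overlap was 5 with upper quartile scaling and 6 to 8 without single libraries. Groups separate more easily when a library is left out. The shares over all genes given above hold for the main fit with 3 against 3 and were not computed for these settings. The members' median ran from -0.64 without mutant 3 to -0.24 without mutant 1, and from -0.54 to -0.45 in the alternatives that kept all libraries. The ratio of Ldhb to Ldha kept its sign, from 0.28 without mutant 1 or mutant 2 to 0.81 without mutant 3, and that of Slc16a3 to Slc16a1 from -1.20 without mutant 2 to -0.13 without mutant 3.

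Samples of the same number did not deviate together over all genes, with correlations from -0.067 to -0.028. Samples of different numbers had -0.0052 to 0.073. Deviations from the means of such small groups are tied to each other, so this check cannot exclude a pairing by number. With the replicate block the members' median was -0.54, 0 members passed and 5 had an unadjusted p under 0.05, beside 991 of 18323 genes. The ratio differences kept their values of 0.46 and -0.78 under the block, each with an exact sign-flip permutation p = 0.5. With so few pairs this sign-flip test cannot reach 0.05, so it decides nothing here. With control 1 left out 0 members had an unadjusted p under 0.05, beside 866 of 18792 genes. With mutant 3 left out 5 had, beside 2426 of 18840 genes. The addition of all sequence copies was chosen after the data were seen, and it left the median at -0.49.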

Other observations

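Hexokinase 2, the inducible first enzyme of glycolysis, was chosen for mention after its values were seen. Hk2 was at 337, 208 and 249 CPM in control 1, 2 and 3, against 33.0, 201 and 235 CPM in mutant 1, 2 and 3, so mutant 1 stood far below the other 5 libraries. Hk1, the constitutive form, was at 158, 162 and 154 CPM in the controls, against 150, 158 and 140 CPM in the mutants. Bpgm, which makes 2,3-bisphosphoglycerate beside Pgk1 and Pgam1, went the other way in mutant 1, at 34.9 CPM against 16.9 to 22.0 CPM in the other libraries. Among the enolases, Eno3, the muscle form, was at 83.6, 164 and 113 CPM in the controls, against 54.9, 172 and 128 CPM in the mutants, with control 2 and mutant 2 the highest. None of the 4 passed edgeR's test.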
